A study of Rattus norvegicus with 15 samples.

Results

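Rat cortical astrocytes injured with H2O2 were compared with and without unmodified mitochondria, in 6 of the 15 RNA sequencing libraries of the study. The members were chosen by their labels alone, 3 libraries of H2O2-treated cells and 3 of H2O2-treated cells that also received mitochondria. All 5 groups of the study were primary astrocytes, labelled WT, from the cortex of newborn Sprague Dawley rats. H2O2-treated wells received 100 µM H2O2 for 30 min, and control wells received water. After 24 h, the treated wells were left as they were or received unmodified mitochondria, lipid-coated mitochondria (MitoCoat) or lipid-encapsulated RNA of mitochondria (MitoCoat–mRNA), and RNA was collected 6 h later. The mitochondria were a fraction enriched by centrifugation from cryopreserved placenta of the same rat strain, and the study names a pair of doses, scaled to the culture volume, without stating which the sequenced wells received.

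Mitochondria carry a small circular genome of their own, which encodes subunits of the respiratory chain and the ribosomal and transfer RNAs needed to translate them, while most mitochondrial proteins are encoded in the nucleus. Astrocytes are glial cells that take up transmitters, supply neurons with metabolites and respond to injury and to material in their surroundings with changes in gene expression. H2O2 is an oxidant that crosses membranes and is used as a model of oxidative stress.

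Total counts ranged from 35315654 to 41374789 in the H2O2 libraries and from 38611887 to 46672179 in the mitochondria libraries. Between 93.4% and 97.7% of the counts from 1 to 20 were even numbers in each of the 15 libraries, so that most fragments appear to have been counted as a pair of reads. Genes are given by the Ensembl identifiers and Rnor6.0 positions of the files, which carry no gene symbols, and 0 of the 32552 identifiers matched the reference tables at hand. Gene functions, pathways, promoters and the markers of astrocytes or of other cell types were therefore not analysed here. The sample descriptions mention RNA from mitochondria-enriched fractions, whereas the study describes RNA of the astrocytes, which was assumed. In bulk RNA, fewer cells of a type and less RNA per cell cannot be told apart, and RNA brought in with the mitochondria cannot be told apart from RNA made by the astrocytes. The study calls the samples of a group biological replicates, and the labels do not say from which cultures or animals they came. Mitochondria replicates 1 and 2 were closer to each other than the other pairs within the H2O2 and mitochondria groups. Their mean chi-square per gene against counting error was 10.63, beside 34.1 to 52.85 for those pairs. What made them closer was not tested.

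Adding unmodified mitochondria raised 290 genes and lowered 270 of the 15613 genes tested (edgeR quasi-likelihood F test, Benjamini-Hochberg adjusted p under 0.05). These were 1.86% and 1.73% of the genes tested. A fit that also took the replicate number as a block called 643 genes (4.12%) higher and 600 (3.84%) lower, and these included all 290 and all 270 genes of the first counts. Fold changes, standard errors and adjusted p below are from fits without the block unless it is named, so they do not use the replicate numbers. Without the block, both counts fell when 1 library was left out, and the lowest were 152 higher and 102 lower without the mitochondria library of replicate 1.

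The raised genes changed by larger folds than the lowered genes. The median log2 fold change of the raised genes was 1.05, with quartiles of 0.64 and 2.05, and 150 of 290 rose more than 2-fold. The lowered genes had a median log2 fold change of -0.66, with quartiles of -0.91 and -0.53, and 54 of 270 fell more than 2-fold. Over all tested genes the median log2 fold change was -0.01. More than 4-fold changes were found for 78 raised and 5 lowered genes. These sizes are those of called genes, and low-level genes needed a larger fold to be called.

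**Figure D1:**
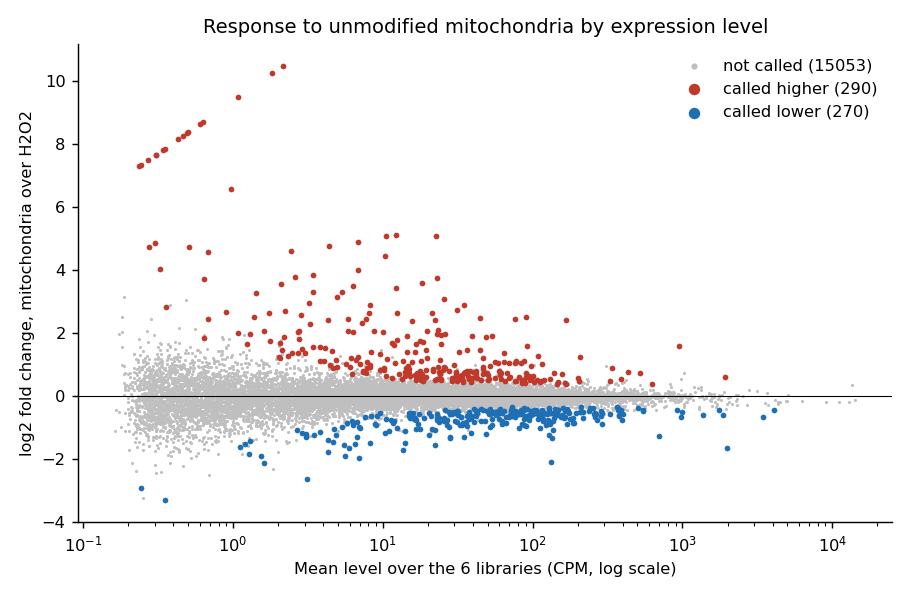
Log2 fold change of each tested gene (vertical axis) against its mean level over the 6 libraries in CPM (horizontal log axis), with genes called higher in red, called lower in blue and the rest in grey. The 290 raised genes extend to larger folds and lower levels than the 270 lowered genes, and the line of points at the upper left is formed by the 16 raised genes with 0 counts in every H2O2 library, whose fitted folds depend on the fit.

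The directions also differed in the levels of the genes. Here a level is the count per 1000000 counts (CPM) after TMM normalization over the 15 libraries. The raised genes had a median level of 11.1 CPM with H2O2 and 25.1 CPM with mitochondria, and the lowered genes 69.0 and 45.5 CPM. The median over all tested genes was 17.1 CPM with H2O2. Of the 656 genes with a mean of at least 256 CPM, 33 (5.03%) were called lower and 8 (1.22%) higher. Of the 3032 genes from 4 to 16 CPM, 41 (1.35%) were called lower and 69 (2.28%) higher. Summed over the called genes, the raised ones went from 10516 to 18906 CPM and the lowered ones from 50265.0 to 32281 CPM. The choice of genes on these libraries fixed the direction of each sum and favours a large change.

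**Figure D2:**
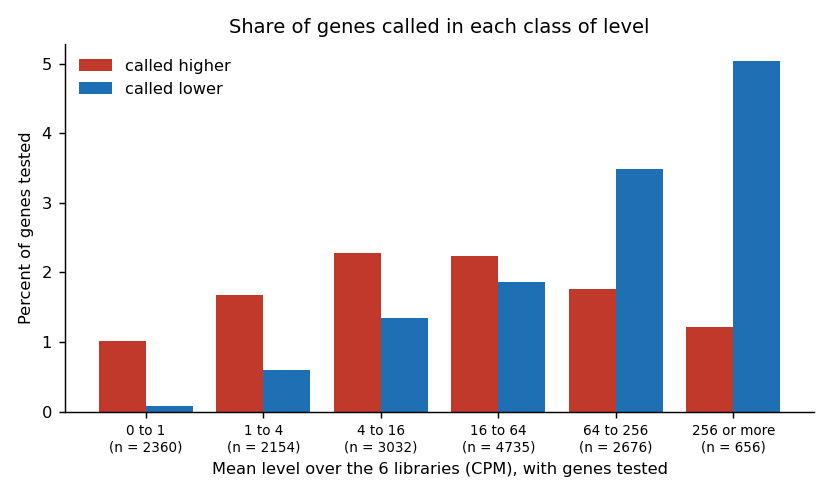
Percent of tested genes called higher (red bars) and lower (blue bars) in 6 classes of mean level in CPM, with the number of genes tested in each class. The share called lower rises from 0.0847% in the lowest class to 5.03% in the highest, while the share called higher lies between 1.02% and 2.28%.

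Of the 290 raised genes, 254 (87.6%) had at least 10 counts in every H2O2 library. This was a smaller share than the 93.8% of all tested genes and the 100% of the 270 lowered genes. The filter on counts keeps such shares high. Among these 254, 114 rose more than 2-fold, 43 more than 4-fold and 12 more than 8-fold. The ratio between the highest and the lowest mitochondria library had a median of 1.24 over these genes and of 1.21 over the 14639 tested genes that had such counts and at least 1 count in every mitochondria library, and it was over 3 for 4 of the 254 (1.57%) and 426 of the 14639 genes (2.91%). The test favours genes with a small spread.

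The largest increase among these 254 genes was that of ENSRNOG00000023410, on the minus strand of chromosome 7 from 118927008 to 118933812. Its level was 0.447, 0.808 and 0.788 CPM in the H2O2 libraries (16, 32 and 32 counts) and 24.4, 25.8 and 21.1 CPM with mitochondria. The groups were far apart, and the spread within each was small beside the gap. The log2 fold change was 5.10 ± 0.21 (SE, n = 3 per group, adjusted p = 1.5e-06 by edgeR), a 34.3-fold increase. The next was ENSRNOG00000033220, on the minus strand of chromosome 12 from 41227825 to 41307352. Its level was 1.68, 0.758 and 1.53 CPM with H2O2 and 43.4, 48.3 and 40.3 CPM with mitochondria. Its log2 fold change was 5.06 ± 0.23 (SE, n = 3 per group, adjusted p = 2.1e-06 by edgeR).

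Neither gene was high in the wells that received no mitochondria. ENSRNOG00000023410 was at 1.86, 0.683 and 1.44 CPM in control libraries and at 1.10, 0.367 and 0.365 CPM with MitoCoat–mRNA. With MitoCoat it was at 17.8, 24.3 and 18.7 CPM, overlapping the unmodified mitochondria libraries. ENSRNOG00000033220 was at 2.21, 2.39 and 2.86 CPM in control libraries, 1.35, 1.03 and 0.914 CPM with MitoCoat–mRNA, and 32.6, 55.8 and 37.6 CPM with MitoCoat. Against MitoCoat–mRNA, the log2 fold changes with mitochondria were 5.30 and 5.33. This contrast shares the 3 mitochondria libraries whose values chose the genes, so it is a description and no separate test. H2O2 against control gave log2 fold changes of -0.94 and -0.91, neither past the threshold (adjusted p = 0.251 and 0.15 by edgeR). Comparisons of H2O2 with control, here and for the genes that follow, share the H2O2 libraries that chose the genes and are likewise descriptions.

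**Figure D3:**
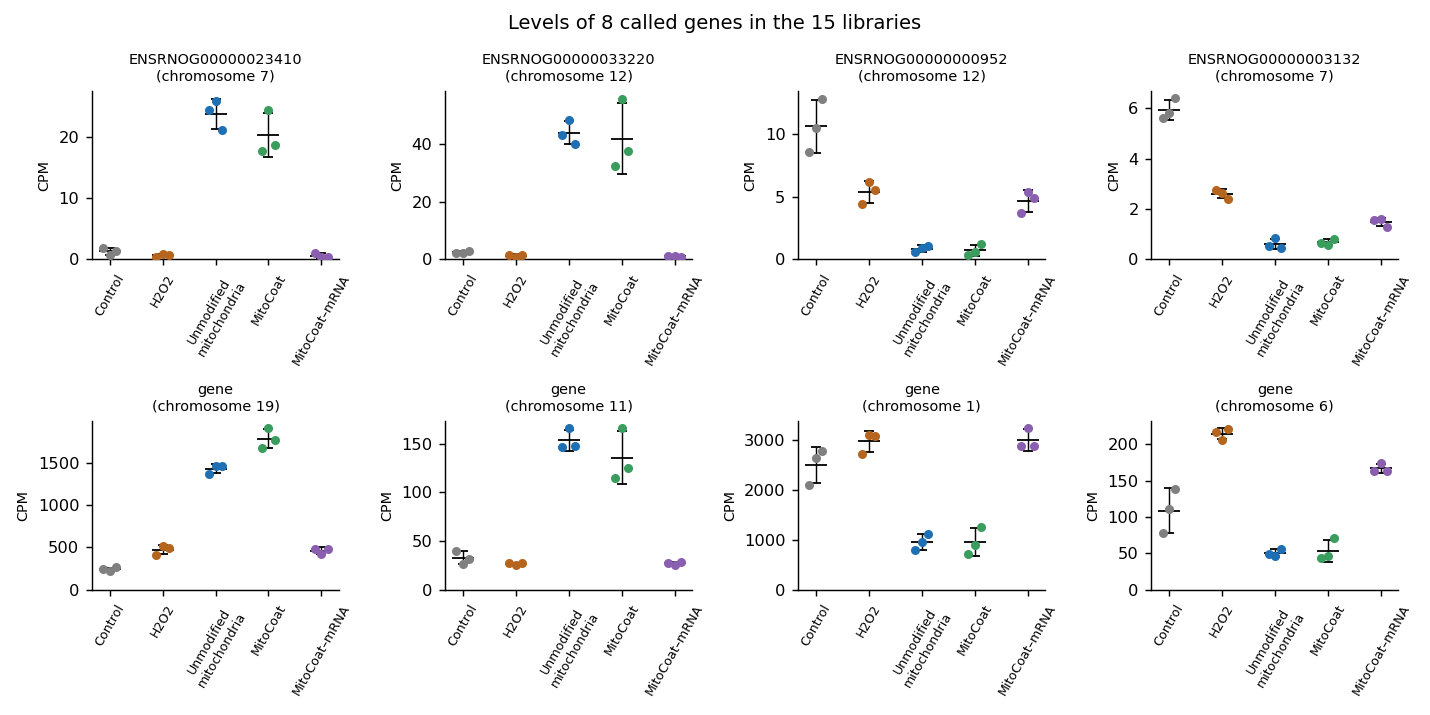
Level in CPM (vertical axes, from 0) of 8 called genes in the 15 libraries, with 1 point per library in 5 groups and the mean ± SD as bars. In each panel the unmodified mitochondria libraries lie apart from the H2O2 libraries, which follows from the choice of called genes. The groups did not overlap for any of the 290 raised and 270 lowered genes, beside 19.1% of all tested genes without overlap. The unmodified mitochondria libraries lie close to or overlap the MitoCoat libraries except for the chromosome 19 gene, where all 3 MitoCoat libraries are higher.

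Besides these identifiers, genes are described by position, and they were chosen after their values were seen, by the largest change in CPM in each direction and as abundant genes with large folds. The largest gain in level was that of a gene on chromosome 19 from 14508616 to 14515456. It was at 410.4, 519 and 489 CPM with H2O2 and at 1364, 1459 and 1462 CPM with mitochondria, a 3.01-fold rise (log2 fold change 1.59 ± 0.11, SE, n = 3 per group, adjusted p = 3.15e-05 by edgeR). Control libraries were lower still, at 240.2, 226 and 262 CPM (log2 fold change of H2O2 against control 0.97). Its levels therefore formed steps, from control to H2O2 to mitochondria, with no overlap between neighbouring groups. With MitoCoat–mRNA it was at 482, 417 and 485 CPM, among the H2O2 values.

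A gene on chromosome 11 from 38035450 to 38059950 rose evenly. It was at 27.3, 25.8 and 27.4 CPM with H2O2 and at 146, 166 and 148 CPM with mitochondria, a 5.69-fold rise (adjusted p = 1.5e-06 by edgeR). Control libraries were at 39.8, 26.6 and 31.3 CPM and MitoCoat–mRNA libraries at 27.6, 25.6 and 28.6 CPM.

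Other abundant genes rose by smaller folds, with calls that were lost without some of the libraries. The one on chromosome 4 from 56711049 to 56738791 was at 1494, 1227 and 1879 CPM with H2O2 and at 2539.9, 2225 and 2203 CPM with mitochondria. Its log2 fold change was 0.59 (adjusted p = 0.0492 by edgeR), and the call was lost in 5 of the 6 fits that left out a library (highest adjusted p = 0.223 by edgeR, without the mitochondria library of replicate 1). On chromosome 3, the gene from 121725859 to 121739173 was at 359, 346 and 475 CPM with H2O2 and at 655, 595 and 689 CPM with mitochondria, a 1.64-fold rise. That call was lost without the mitochondria library of replicate 1 (adjusted p = 0.0609 by edgeR) or of replicate 3 (adjusted p = 0.0531 by edgeR). On chromosome 2, the gene from 210522375 to 210550560 was at 340.1, 332 and 282 CPM with H2O2 and at 499, 464 and 659.8 CPM with mitochondria, and lost its call without the H2O2 library of replicate 3 (adjusted p = 0.0593 by edgeR). With the replicate block, all 3 of these genes remained called, with adjusted p of 0.000246, 6.86e-06 and 4.66e-05 by edgeR.

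Raised genes lay next to each other in the genome more often than their share of all tested genes. The next tested gene along the chromosome was also raised for 36 of the 290 raised genes (12.4%, beside 1.86% of all tested genes). Of the 290, 16 had 0 counts in every H2O2 library and were tested through the mitochondria libraries alone. The next tested gene was also lowered for 6 of the 270 lowered genes (2.22%, beside 1.73%). Grouping called genes with gaps of at most 1 Mb gave 12 clusters of at least 4 raised genes, with 62 genes in all, and 0 clusters of lowered genes. The share in clusters of genes drawn from all tested genes was not computed, so gene density is not accounted for. Some clustered raised genes had 0 counts in every H2O2 library, whereas all 270 lowered genes had at least 10 counts in each. The gap and the size were chosen after the data had been seen. With a size of at least 3 genes, 25 clusters held 101 raised genes (34.8%) and 10 held 30 lowered genes (11.1%). By DESeq2 on the 6 libraries, 18 clusters of at least 4 genes held 23% of the raised genes and 6 held 6.15% of the lowered genes. On all 15 libraries these were 24 clusters with 26.9% and 11 clusters with 9.96%. The share in clusters was larger for the raised genes in each of these settings, while the size of the contrast moved with them. With the replicate block, the next gene was also called for 12.8% of the raised and 8.67% of the lowered genes, beside 4.12% and 3.84% of all tested genes, and 25 clusters held 157 raised genes (24.4%) and 16 held 80 lowered genes (13.3%). With the gene length offset in addition, the shares in clusters were 28.2% and 24.6%, and the next gene was also called for 13.1% of the raised and 12.6% of the lowered genes. By DESeq2 on the 6 libraries, the next gene was also called for 6.52% of the raised and 4.96% of the lowered genes, beside 2.05% and 1.88% of all genes in that fit. With genes of at least 1 count in total, these were 7.58% and 4.62%, beside 1.82% and 1.45%. Both of these fits held 22465 genes, in place of 15613. Fewer clusters were found with fewer libraries. Without mitochondria replicate 1 there were 4 with 20 raised genes, without mitochondria replicate 2 there were 6 with 27, without mitochondria replicate 3 there were 9 with 44, and without an H2O2 library there were 7 with 34 to 39. Among genes with at least 10 counts in every library, 7 clusters held 39 raised genes, and there were 0 clusters of lowered genes. In that fit 255 genes were raised and 252 lowered. The next gene was also called for 9.02% of these raised and 3.17% of these lowered genes. Of the 62 clustered genes, 28 lost their call when at least 1 library was left out.

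**Figure D4:**
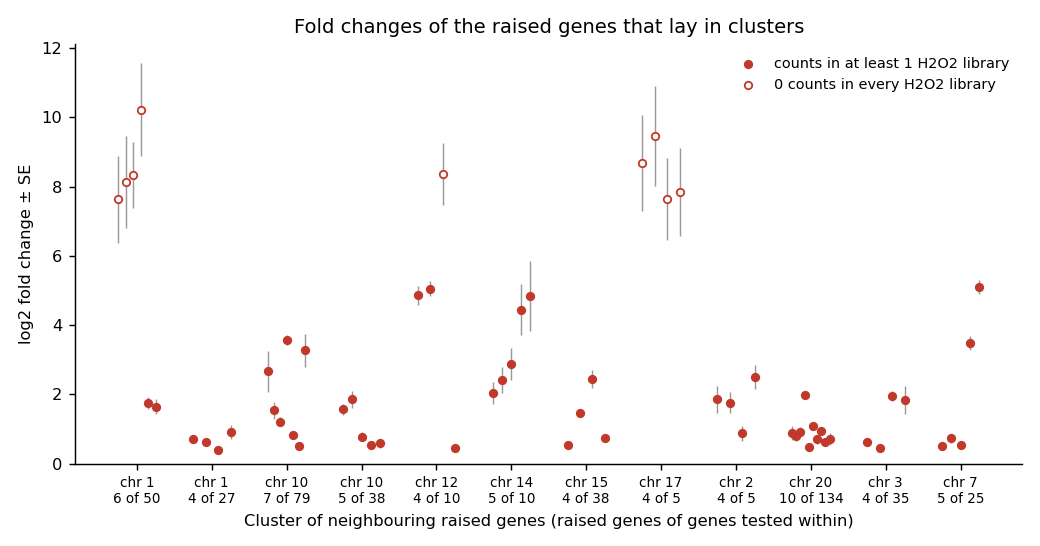
Log2 fold change ± SE (vertical axis) of the 62 raised genes in 12 clusters, each labelled with its chromosome and the number of raised genes of the genes tested within it. Filled points have counts in the H2O2 libraries and open points have 0 counts in all 3, so that their height depends on the fit.

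The cluster on chromosome 12 from 41200718 to 41590244 held the second of the named genes. Of 10 genes tested within it, 4 were raised. The neighbour at lower coordinates, from 41200718 to 41211909, was at 0.448 ± 0.187 CPM with H2O2 and 13.3 ± 1.54 CPM with mitochondria (SD, n = 3), with a log2 fold change of 4.87. Another gene, from 41340815 to 41363161, had 0 counts in every H2O2 library and 32, 48 and 51 counts with mitochondria. The one from 41566981 rose by a log2 fold change of 0.46 and lost its call without any 1 of the 6 libraries.

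On chromosome 14 from 18576355 to 19159923, 5 of 10 tested genes were raised, all on the minus strand. The most abundant, from 18743685 to 18745457, was at 55.4, 66.5 and 35.1 CPM with H2O2 and at 202, 171 and 470.5 CPM with mitochondria, a 5.33-fold rise (adjusted p = 0.0056 by edgeR). The gene from 18860264 to 18862407 was at 1.15, 0.859 and 0.714 CPM with H2O2 and at 6.92, 7.86 and 44.9 CPM with mitochondria. In both, the mitochondria library of replicate 3 was more than 2-fold above the others, and MitoCoat replicate 3 was likewise the highest of its group, at 289 CPM beside 190.4 and 162 CPM for the first gene and at 18.0 CPM beside 5.82 and 6.46 CPM for the other. The log2 fold change of the gene from 18860264 was 4.45 with all libraries and 3.03 without mitochondria replicate 3 (adjusted p = 0.00104 by edgeR). That of the neighbour from 18820168 was 2.87 and 2.06.

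The same library stood out on chromosomes 2 and 6. On chromosome 2 from 248178389 to 248409570, 4 of 5 tested genes were raised, all on the plus strand. The most abundant, from 248276709, was at 212, 257 and 246 CPM with H2O2 and at 354, 338 and 625 CPM with mitochondria (adjusted p = 0.0499 by edgeR). It lost its call without any H2O2 library or without mitochondria replicate 1, with a highest adjusted p of 0.149 by edgeR without H2O2 replicate 1. The gene from 248178389 had a log2 fold change of 1.86 with all libraries and 1.11 without mitochondria replicate 3, and its call was lost without H2O2 replicate 1, 2 or 3 (adjusted p = 0.0965, 0.0636 and 0.116 by edgeR). On chromosome 6, the gene from 135890931 to 135903647 was at 19.6, 26.6 and 25.5 CPM with H2O2 and at 94.0, 70.4 and 224 CPM with mitochondria. Its log2 fold change was 2.43, and 1.78 without mitochondria replicate 3 (adjusted p = 0.00129 by edgeR). Among all 290 raised genes, mitochondria replicate 3 was more than 2-fold above both other mitochondria libraries for 13 genes and more than 2-fold below both for 10 genes. What set this library apart was not tested.

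Further clusters combined strong and weak increases. On chromosome 10 from 88006179 to 90312386, 7 of 79 tested genes were raised and 1 was lowered. The steepest of the well-expressed ones, from 88599680 to 88611105, was at 3.41, 2.30 and 2.71 CPM with H2O2 and at 33.7, 34.2 and 32.7 CPM with mitochondria, a log2 fold change of 3.57 ± 0.15 (SE, n = 3 per group). On chromosome 7 from 117675720 to 118933812, 5 of 25 tested genes were raised, among them ENSRNOG00000023410, which had the largest increase of the genes with at least 10 counts in every H2O2 library, and one from 118473070 that went from 1.02 ± 0.204 to 11.6 ± 1.05 CPM (SD, n = 3).

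The cluster with the most raised genes was on chromosome 20 from 3146856 to 5711702, where 10 of 134 tested genes were raised and 2 lowered. Increases there were moderate, with log2 fold changes from 0.48 to 1.97. The gene from 3176107 to 3179818 was at 9.69, 9.24 and 8.96 CPM with H2O2 and at 35.3, 36.9 and 37.8 CPM with mitochondria, and its groups were far apart. The gene from 3979035 to 3989669 was at 50.9, 51.1 and 46.6 CPM with H2O2 and at 108, 107 and 100.1 CPM with mitochondria. Of the 10 genes, 5 share exon positions with another annotated gene, so that their reads could not be assigned with certainty. The strand setting of the counting was not stated for these libraries. Over whole chromosomes, the share of tested genes that were raised was highest on chromosome 20 (16 of 456 genes, 3.51%) and chromosome 10 (41 of 1310 genes, 3.13%), and 1 of 526 genes was raised on chromosome X.

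A small group of the raised genes, 16 of 290, had 0 counts in every H2O2 library. Their summed level was 27.8, 24.9 and 8.71 CPM with unmodified mitochondria and 93.7, 64.5 and 17.5 CPM with MitoCoat. It was at most 0.293 CPM in any control library and at most 0.275 CPM in any MitoCoat–mRNA library. Against a floor of 3 fragments, or 6 counts, per H2O2 library, the single genes were at least 3.05-fold to at least 28.1-fold higher. With these bounds in place of the fitted folds, the median log2 fold change of the 290 raised genes was again 1.05, with an upper quartile of 2.00. All 4 raised genes of the chromosome 17 cluster from 38710432 to 39575720 and 4 of the 6 on chromosome 1 from 79181855 to 80744831 were of this kind. Without mitochondria replicate 1, 3 of these 4 genes on chromosome 17 and 2 of these 4 on chromosome 1 lost their call (adjusted p from 0.0503 to 0.0677 by edgeR). Mitochondria replicate 3 was the lowest library for 11 of the 16 genes. The source of these transcripts was not tested.

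The largest decrease of the lowered genes that met the rule for named genes was that of ENSRNOG00000000952, on the minus strand of chromosome 12 from 9605873 to 9607168. Its level was 4.41, 6.19 and 5.51 CPM with H2O2 and 0.617, 0.878 and 1.11 CPM with mitochondria. The log2 fold change was -2.63 ± 0.28 (SE, n = 3 per group, adjusted p = 0.00072 by edgeR). Control libraries were higher than both, at 8.59, 10.5 and 12.8 CPM, and H2O2 against control gave a log2 fold change of -0.97. ENSRNOG00000003132, on the plus strand of chromosome 7 from 2635743 to 2642848, had a like order. It was at 5.60, 5.80 and 6.38 CPM in control libraries, 2.77, 2.63 and 2.41 CPM with H2O2 and 0.514, 0.832 and 0.460 CPM with mitochondria. Its log2 fold change with mitochondria was -2.11 ± 0.33 (SE, n = 3 per group, adjusted p = 0.00632 by edgeR), and H2O2 against control gave -1.18. Both genes were thus lower with H2O2 than in control libraries and lower still with mitochondria.

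With MitoCoat–mRNA, ENSRNOG00000000952 was at 3.70, 5.38 and 4.86 CPM, overlapping the H2O2 libraries. ENSRNOG00000003132 was at 1.55, 1.60 and 1.30 CPM with MitoCoat–mRNA, below every H2O2 library and above every mitochondria library. Whether the 2 genes differed in this was not tested.

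The largest fold among very abundant lowered genes was found on chromosome 1 from 21851660 to 21854773. This gene was at 2733, 3109.5 and 3092 CPM with H2O2 and at 788, 967 and 1121 CPM with mitochondria, a log2 fold change of -1.64 ± 0.13 (SE, n = 3 per group, adjusted p = 9.09e-05 by edgeR). Control libraries were at 2097, 2646 and 2785 CPM, so that the mitochondria libraries lay below control as well as H2O2. MitoCoat–mRNA libraries were at 2887, 3256 and 2881 CPM.

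On chromosome 6, a gene from 127075954 to 127127413 fell from 218, 206 and 221 CPM to 49.5, 45.6 and 55.7 CPM. Its log2 fold change was -2.10 ± 0.10 (SE, n = 3 per group, adjusted p = 2.45e-06 by edgeR). Control libraries were at 77.4, 111 and 138 CPM, between the other groups. A choice of genes with high H2O2 values favours such an order. On chromosome 3, a gene from 171294856 to 171342646 was likewise at 524, 586 and 693 CPM in control libraries, at 801, 1174 and 984 CPM with H2O2 and at 451, 414 and 372 CPM with mitochondria (log2 fold change -1.27, adjusted p = 0.00105 by edgeR). In both genes, every mitochondria library was below every control library.

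Lower folds were found for 3 more of the most abundant genes. The gene from 109862117 to 109873466 on chromosome 3 was at 4239 ± 436 CPM with H2O2 and 2659.7 ± 162 CPM with mitochondria (SD, n = 3, adjusted p = 0.00434 by edgeR). That from 71331052 to 71340229 on chromosome 13 was at 2245 ± 113 CPM with H2O2 and 1485 ± 81.6 CPM with mitochondria (SD, n = 3, adjusted p = 0.00496 by edgeR). That from 90990762 to 90999506 on chromosome 10 was at 4686 ± 574 CPM with H2O2 and 3430.3 ± 153 CPM with mitochondria (SD, n = 3, adjusted p = 0.0348 by edgeR), and lost its call in 5 of the 6 fits that left out a library, with a highest adjusted p of 0.196 by edgeR without mitochondria replicate 1.

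Between 100 CPM and these levels, 5 further genes fell more than 2-fold. The gene on chromosome 7 from 18409147 was at 164, 184 and 189 CPM with H2O2 and at 75.9, 70.1 and 82.9 CPM with mitochondria. On chromosome 13, the gene from 49092306 was at 177, 181 and 200.1 CPM with H2O2 and at 76.9, 90.1 and 97.8 CPM with mitochondria, and its control libraries, at 174, 176 and 204 CPM, overlapped those with H2O2 (log2 fold change 0.02). The genes on chromosome 7 from 25039335 and on chromosome 18 from 56364620 each fell by 1.01 on the log2 scale. The gene on chromosome 4 from 122314458 varied with the replicate number, at 226, 224 and 124 CPM with H2O2 and at 89.3, 95.4 and 43.7 CPM with mitochondria. Its adjusted p was 0.0377 without and 8.7e-11 with the replicate block by edgeR, and the unblocked call was lost in 4 of the 6 fits that left out a library, with a highest adjusted p of 0.111 by edgeR without H2O2 replicate 2.

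Coated mitochondria were compared with unmodified ones for 23 of these genes, those with an identifier above and those chosen for their abundance or spread. None passed the threshold, with a smallest adjusted p of 0.889 by edgeR, and 3 of 23 had an unadjusted p under 0.05, beside 4.95% of all genes tested. The 23 were chosen on the same unmodified mitochondria libraries, and a choice of high values there favours lower values with MitoCoat, so these are descriptions. For ENSRNOG00000023410 the log2 difference of MitoCoat from unmodified mitochondria was -0.24 (95% interval from -0.54 to 0.07), and for ENSRNOG00000033220 it was -0.07 (from -0.46 to 0.31). For the chromosome 19 gene from 14508616, MitoCoat libraries were at 1677, 1908 and 1773 CPM, all above the unmodified mitochondria libraries, with a log2 difference of 0.32 (from 0.14 to 0.50, adjusted p = 0.889 by edgeR). For the chromosome 1 gene from 21851660 the difference was -0.01 (from -0.44 to 0.42). With the replicate block the smallest adjusted p among the 23 genes was 0.264 by edgeR, while the unadjusted 95% intervals left out 0 for 10 of the 23 genes and for 8.91% of all genes tested. MitoCoat was lower for 8 of the 10, of which 6 were genes raised by unmodified mitochondria, the direction that the choice of genes favours. The chromosome 6 gene from 135890931 then differed by -0.58 (from -0.86 to -0.30) and the chromosome 14 gene from 18860264 by -0.66 (from -1.10 to -0.23) on the log2 scale.

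Calls on the mitochondrial genome were as few as the shares over all tested genes would give for so small a set. The files list 35 genes on chromosome MT, of which 28 were tested, and edgeR called 0 of them higher and 1 lower, beside 1.86% and 1.73% of all tested genes. DESeq2 gave the same numbers, and 0 genes had an increase at an unadjusted p under 0.05 by edgeR. Their summed level was 37575, 47472 and 30218 CPM in the H2O2 libraries and 31582, 34299 and 32687 CPM in the mitochondria libraries. The H2O2 libraries spread around all 3 mitochondria libraries, and the difference of the means was -5566 CPM (p = 0.4, two-sided exact permutation test without pairing, which with 3 against 3 libraries cannot go below 0.1 and so could not pass 0.05). Summed levels were 39949.9, 31841 and 29400.2 CPM in control libraries and 35613, 44929.8 and 39982 CPM with MitoCoat.

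All 13 tested genes of at least 200 bases on the mitochondrial genome had log2 fold changes below 0, from -0.43 to -0.12 with a median of -0.28, and none was called (smallest adjusted p = 0.364 by edgeR). The H2O2 library of replicate 3 was the lowest of its group for all 13. The median was -0.06 without H2O2 replicate 2 and -0.49 without H2O2 replicate 3. The upper ends of their 95% intervals reached at most 0.23. With the replicate block, the gene on the minus strand from 13543 to 14061 was called lower (adjusted p = 0.0182 by edgeR, 0.364 without the block). It was at 377, 444 and 249 CPM with H2O2 and at 237, 315 and 246 CPM with mitochondria.

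The 1 gene called lower was a short one of 69 bases on the minus strand from 6865 to 6933. It was at 47.7, 44.2 and 46.9 CPM with H2O2 and at 36.3, 32.3 and 35.9 CPM with mitochondria, a log2 fold change of -0.42 ± 0.09 (SE, n = 3 per group, adjusted p = 0.0393 by edgeR). Control libraries were at 23.9, 24.4 and 39.2 CPM. The call was lost in all 6 fits that left out a library, with adjusted p from 0.0539 to 0.226 by edgeR, and without H2O2 replicate 3 another gene, from 9870 to 10166, was called lower (log2 fold change -0.53, adjusted p = 0.0434 by edgeR). It shares its edge with a plus-strand gene from 5323 to 6867 that was at 12539, 15966 and 12375.5 CPM with H2O2 and at 11241, 11664 and 13180.1 CPM with mitochondria, and reads from the 2 strands could not be told apart here.

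**Figure D5:**
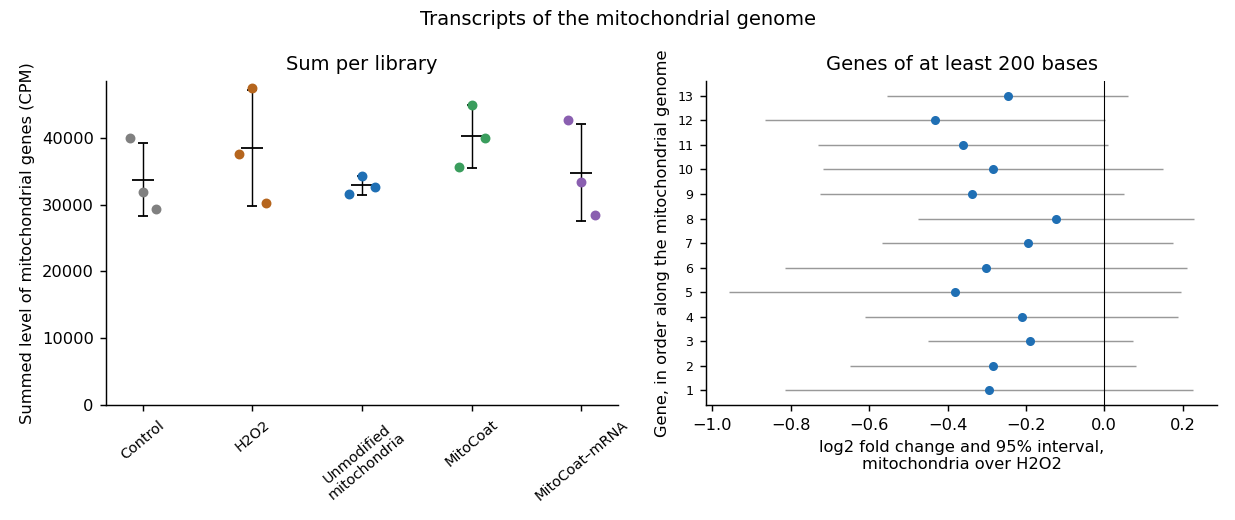
Left, summed level of the genes of the mitochondrial genome in CPM for each of the 15 libraries, with the mean ± SD of each group. Right, log2 fold change with its 95% interval for the 13 tested genes of at least 200 bases, in order along the mitochondrial genome. All 13 values are below 0 and every interval reaches past 0.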

How the data were processed

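RNA sequencing libraries of rat astrocytes, 3 per group, were analysed. Per the labels, the authors ran Trimmomatic 0.36 for trimming and STAR 2.5.2b for alignment to Rnor6.0, and used featureCounts of Subread 1.5.2 to obtain, per gene, the raw counts of uniquely mapped exonic reads that they deposited without normalization. A further file was identical to that of mitochondria replicate 2 and was not used.

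Counts were filtered (filterByExpr), TMM-normalized and tested in R 4.3.3 with edgeR 4.0.16 on the 6 libraries. Standard errors and 95% intervals were derived from each F statistic and its fold change. The replicate block took replicate numbers to pair the libraries, since deviations from group means correlated by 0.305, 0.279 and 0.269 across genes for the same number, each above 0.1, and by -0.188 to -0.0881 for different numbers. The main fit and the fits that left out a library had no replicate term and ignored this pairing. On simulated data for this comparison, with 15613 genes, 20 of 50 genes changed 1.5-fold, 34 of 50 changed 2-fold and 42 of 50 changed 4-fold were called.

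The rule for named genes took the 2 largest increases and decreases among called genes with a mean of at least 1 CPM, no overlap between groups and at least 10 counts in every library of a group, increases from genes with at least 10 counts in every H2O2 library. Gene lists, cell type markers and promoter motifs were not analysed here, because no identifier matched. The comparison, rules and lists were chosen with earlier results of these data known. Alternatives were DESeq2 1.42.0, all 15 libraries in one fit, RLE size factors, other filters, a replicate block, a gene length offset (loess span 0.3), each library left out, and, added after seeing the data, halved counts and other definitions of clusters. Figures were drawn with matplotlib 3.10.9.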

Additional observations from a re-analysis of the deposited data

How the results depend on the processing

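The counts of called genes moved with the test. Against 290 higher and 270 lower genes, DESeq2 called 460 and 423 on the 6 libraries and 565 and 522 on all 15, edgeR on all 15 libraries called 424 and 347, the replicate block gave 643 and 600, and the block with the gene length offset gave 784 and 825. Leaving out 1 library gave 152 to 233 higher and 102 to 229 lower genes. RLE size factors, the other filters, the length offset alone and counts divided by 2 kept both counts within 1.5 times. Of 367 log2 fold changes of the 23 single genes under the alternatives, 0 changed sign and 21 lost the call, none of them with the replicate block, and 1 DESeq2 value had no adjusted p. Under the alternatives, the share of raised genes whose next tested gene was also raised ranged from 6.52% (DESeq2 on the 6 libraries) to 13.4%, against 12.4% as reported, and that of lowered genes from 2.33% to 12.6%, against 2.22%, highest with the block and length offset together. Raised genes in clusters made up 21.4% as defined, 13.8% with a shorter gap (0.5 Mb) and 32.8% with a longer one (2 Mb), and lowered genes 0%, 0% and 5.93%. With clusters of at least 3 genes these were 34.8% and 11.1%, and by DESeq2 lowered genes in clusters made up 6.15% on the 6 libraries and 9.96% on all 15. Of the 2360 genes under 1 CPM, 24 were called higher and 2 lower, and the part of depth in this was not tested.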
